A study of Mus musculus with 6 samples.

Results

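The genes described here were 10 regulators of entry into the cell cycle, taken by name from the 17831 genes of the deposited count table. They were the D cyclins Ccnd2 and Ccnd3, the kinases Cdk4 and Cdk6, the CDK inhibitors Cdkn1a, Cdkn1b, Cdkn2c and Cdkn2d, and the retinoblastoma family genes Rb1 and Rbl1. All 10 were in the table and all 10 passed the filter on low counts that left 13623 genes for testing. Bulk RNA sequencing was performed on cultured group 2 innate lymphoid cells (ILC2s), lymphocytes without antigen receptors that release type 2 cytokines, sorted from mouse lung. The 3 WT libraries came from mice labelled CB57BL/6, and the 3 SIRPα KO libraries from mice labelled SIRPalphatm1Ynliu/J, a targeted allele of the gene for the inhibitory receptor SIRPα. Neither the labels nor the study's methods limit this allele to ILC2s by a Cre driver. Mice of both genotypes were 6 to 8 weeks old and were given 0.5 µg IL-33 intranasally on 3 days. Their ILC2s were sorted on day 4 as CD45+, lineage-, CD127+ and ST2+ cells and then cultured with rmIL-2 and rmIL-7 at 10 ng/ml each, for 18 h in the text of the study and 24 h in a figure legend. No group without IL-33 and no uncultured group is part of the comparison, so all values below are those of activated and cultured cells.

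The D cyclins are made when growth factors or cytokines act on a resting cell, and they bind and activate CDK4 and CDK6. These kinases phosphorylate the retinoblastoma protein and its relatives, the pocket proteins, which otherwise hold E2F transcription factors in check and keep S-phase genes off. Inhibitors of the INK4 family bind CDK4 and CDK6 themselves, whereas those of the CIP/KIP family bind cyclin-CDK complexes and act mainly on CDK2. In lymphocytes, interleukin-2 and interleukin-7 drive this step, and loss of p27 or of an INK4 inhibitor is known to let lymphocytes divide more readily.

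The libraries held 13980491 to 19051504 reads on genes. The 3 WT libraries varied more than the SIRPα KO libraries, with a biological coefficient of variation of 38.1% against 15.2%, and of 27.9% in WT without replicate 3. All 10 members had the larger SD in WT, as did 79.3% of the genes tested. The labels code WT replicates 1 and 2 as 37 and 37V1, and replicates 2 and 3 of SIRPα KO as 44 and 44V1, and what V1 means is not stated. The series' design text speaks of duplicates, whereas the labels give 3 samples in each group. Libraries 37 and 37V1 were the closest WT pair, with a chi-square per gene of 28.2 against 61.5 and 75.2 for the other WT pairs, while 44 and 44V1, at 10.1, lay between the other SIRPα KO pairs at 7.90 and 11.3. Whether libraries of 1 code are repeats of 1 sample cannot be told from these values, since repeat preparations could also differ by more than sampling noise. Each library was counted as 1 sample, as labelled, so every n = 3, SD and p below rests on that, and the comparison with libraries of 1 code summed is given beside the members' calls. Nothing says that the libraries came from separate animals, so p-values measure the spread between these libraries, which may be technical. Sirpa was at 8.57, 6.83 and 4.83 CPM in WT and at 3.07, 4.46 and 1.74 CPM in SIRPα KO (CPM, counts scaled to a common library size with TMM factors), which did not pass the test (log2 fold change -1.12, SE 0.42, adjusted p = 0.116). All 13 ILC2 markers examined were in the table, and Gata3, the lineage factor of ILC2s, was at 846 to 1078 CPM in WT and 974 to 1035 CPM in SIRPα KO. The summed level of the ILC2 markers was 15102 to 16265 CPM in WT and 20935 to 21515 CPM in SIRPα KO, led by Il5. Of the 13 markers 3 rose (Il5, Il2ra and Ptprc) and 2 fell, Thy1 (log2 fold change -2.06, adjusted p = 0.0139) and Id2 (-0.65, adjusted p = 0.0154). Of 5 B cell markers used here, 4 fell in SIRPα KO, and the sum of the 5 was 212 to 477 CPM in WT against 22.6 to 84.5 CPM in SIRPα KO. Of 5 NK cell markers, 3 fell, with sums of 13.9 to 25.3 CPM in WT and 1.73 to 3.73 CPM in SIRPα KO. T cell markers summed to at most 3.74 CPM in any library, and Cd4 had no read in 5 of 6 libraries. Sums of myeloid markers (45.3 to 130.2 CPM in WT, 83.0 to 127.9 CPM in SIRPα KO), of stromal and epithelial markers (61.2 to 91.7 and 47.0 to 108.6 CPM) and of granulocyte markers (2.88 to 10.7 and 1.55 to 27.5 CPM) overlapped between the groups. Within them Itgam rose (log2 fold change 2.55, adjusted p = 0.0454), from a mean of 1.92 to 11.2 CPM, Pecam1 rose (0.87, adjusted p = 0.0421) and Epcam fell (-1.18, adjusted p = 0.0354). The erythroid sum, from 2 globin genes, was 6.26 to 9.60 CPM in WT and 1.92 to 2.17 CPM in SIRPα KO, and Hba-a1 fell. After the same correction, 1 B cell marker and 2 NK cell markers were called lower. Pecam1 and Hba-a1 kept their calls, whereas Itgam (adjusted p = 0.0631) and Epcam (adjusted p = 0.0660) lost theirs. The part of these other cells in the results below was not tested. WT replicate 3 had the lowest B cell sum of the WT libraries (212 CPM), from Ighm and Igkc, yet the highest Cd79a. Its myeloid sum was 130.2 CPM, and the myeloid sums of the groups overlapped through this library alone. WT replicates 1 and 2, at 46.9 and 45.3 CPM, were below every SIRPα KO library. WT replicate 3 also had the highest NK cell and granulocyte sums of the WT libraries, and it was the highest WT library for 7 of the 10 members.

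Expression of 3 of the 10 members fell in SIRPα KO ILC2s and none rose. The 3 were Cdkn2d, which encodes the INK4 inhibitor p19-INK4D, Ccnd3, which encodes cyclin D3, and Cdkn1a, which encodes the CIP/KIP inhibitor p21. Their fitted levels fell by 46.8%, 35.0% and 33.4%. Over all 13623 genes tested with edgeR's quasi-likelihood test, 11.7% passed an adjusted p of 0.05, with 5.81% lower and 5.94% higher in SIRPα KO. The libraries of the 2 groups did not overlap for 4 members, the 3 above and Cdkn2c, and all 4 were lower in SIRPα KO, where 21.2% of all genes were lower and 21.6% higher without overlap. With 3 libraries against 3, an exact permutation test of a single gene cannot go below p = 0.1. The median log2 fold change of the members was -0.21, and that of all genes tested was -0.025. DESeq2 called the same 3 members, at 26.5% of its genes, and so did edgeR after library biases tied to the length and GC content of transcripts had been fitted and removed (the length and GC correction), at 8.85% of genes. After this correction the median log2 fold change was -0.44 for the members and -0.024 for all genes tested. When the libraries of 1 code were summed, leaving 2 against 2, none of the 10 members passed edgeR's test and 0.0686% of all genes did, with log2 fold changes of -0.63 for Ccnd3, -0.63 for Cdkn1a and -0.91 for Cdkn2d. In that fit 4 members had an unadjusted p under 0.05, as did 3359 of all 14581 genes tested. All 3 calls were also lost when any 1 of the SIRPα KO libraries was left out. There, 16 or 17 genes in the whole table were called. In these fits 3 or 4 members had an unadjusted p under 0.05, as did 2935 to 3183 of the 14141 to 14242 genes tested. Each call was kept when any 1 WT library was left out. In bulk RNA, fewer cells that express a gene and less of its RNA per cell cannot be told apart.

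**Figure D1:**
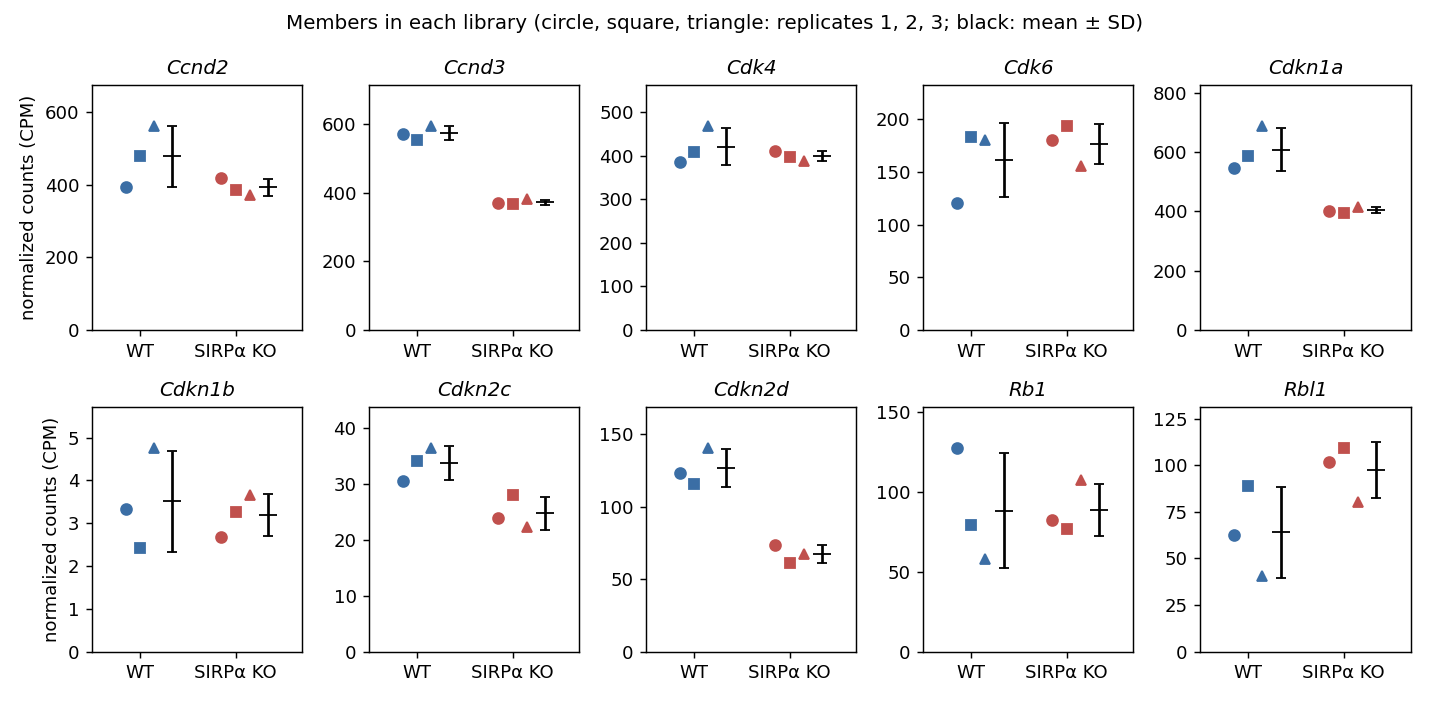
Normalized counts (CPM, vertical axis, from 0) of the 10 genes in the 3 WT (blue) and 3 SIRPα KO (red) libraries, with symbols for the replicate number and black bars for the mean ± SD. Ccnd3, Cdkn1a, Cdkn2c and Cdkn2d have no SIRPα KO library that reaches a WT library, whereas the groups overlap for the other 6.

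The D cyclins are the cytokine-responsive subunits of the CDK4 and CDK6 kinases, and Ccnd3 was the more uniform of the pair. Ccnd3 lies on the plus strand of chromosome 17 from 47505051 to 47599691 (mm10). WT replicates 1, 2 and 3 had 569.8, 555 and 595 CPM of Ccnd3, and the SIRPα KO replicates had 369.9, 367 and 381 CPM. No SIRPα KO library came near the lowest WT library, with means of 573 ± 20.3 and 373 ± 7.45 CPM (SD, n = 3). On the log2 scale Ccnd3 had a fold change of -0.62 (SE 0.089, adjusted p = 0.0129 by edgeR's quasi-likelihood test), and -0.64 (adjusted p = 0.0154) after the length and GC correction. Without WT replicate 3 it was -0.59 (adjusted p = 0.00211). Ccnd3 shares 361 exonic bases with Bysl on the opposite strand, and whether strand was used in counting is not stated. Bysl, a gene for ribosome assembly, had a log2 fold change of 0.33 (SE 0.12, adjusted p = 0.0975), opposite in sign to that of Ccnd3.

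Ccnd2, which encodes cyclin D2, lies on the minus strand of chromosome 6 from 127125162 to 127152193. It was measured at 394, 479.8 and 562 CPM in WT and at 419, 386 and 373 CPM in SIRPα KO. SIRPα KO replicate 1 was above WT replicate 1, so the groups overlapped, and the WT libraries differed among themselves by up to 1.43-fold. For Ccnd2 the log2 fold change was -0.29 (SE 0.14, adjusted p = 0.198), with -0.57 to -0.0066 covered by 2 SE on either side, and -0.80 (adjusted p = 0.0757) after the length and GC correction. Before the correction its unadjusted p in edgeR's test was 0.0753. A range of 2 SE that leaves out 0 thus does not mean an unadjusted p under 0.05. On the opposite strand Ccnd2 shares 372 exonic bases with Gm43126, which is not among the deposited genes. It shares 368 with 9330179D12Rik, which had at most 10 reads a library. Ccnd1, the third D cyclin, was close to absent, with at most 0.42 CPM in any library, and was not tested.

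The read ratio of Ccnd2 to Ccnd3 within a library does not depend on how libraries are scaled. It was 0.692, 0.865 and 0.945 in WT and 1.13, 1.05 and 0.979 in SIRPα KO. Cyclin D3 transcripts thus gave more reads than cyclin D2 in all 3 WT libraries and fewer in 2 of 3 SIRPα KO libraries, and the groups did not overlap. This ratio and those below were chosen after the values of the genes were seen and carry no test. After the length and GC correction the mean log2 difference of the Ccnd2 to Ccnd3 ratio turned from 0.35 to -0.15.

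Cdk4 and Cdk6 encode the kinases that D cyclins activate, and neither differed between the genotypes beyond the spread of the libraries. Cdk4 lies on the plus strand of chromosome 10 from 127063534 to 127067920. Its levels were 385, 409 and 468 CPM in WT against 410.2, 398 and 387 CPM in SIRPα KO. All 3 SIRPα KO libraries fell inside the range of the WT libraries. The log2 fold change of Cdk4 was -0.079 (SE 0.11, adjusted p = 0.641), so that 2 SE on either side ran from -0.29 to 0.13. It was 0.13 (adjusted p = 0.327) after the correction. Cdk4 shares 641 exonic bases with Tspan31 on the opposite strand, which had a log2 fold change of -0.19 (SE 0.12, adjusted p = 0.288).

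Cdk6, on the plus strand of chromosome 5 from 3341485 to 3531008, was measured at 121, 183 and 180.5 CPM in WT and at 180.1, 194 and 156 CPM in SIRPα KO. WT replicate 1 was the lowest library and the other WT libraries lay among those of SIRPα KO. Its log2 fold change was 0.13 (SE 0.18, adjusted p = 0.644), with 2 SE on either side reaching from -0.23 to 0.49. Its sign turned after the correction (-0.51, adjusted p = 0.201), and Cdk6 has the longest transcript of the members, of 11525 bases. Cdk6 shares 368 exonic bases with Gm17590 on the opposite strand, which had 6 to 63 reads a library. Short transcripts of several other genes match parts of Cdk6 at 95% identity or more. Reads of Cdk6 against Cdk4 within a library stood at 0.314, 0.447 and 0.385 in WT and 0.439, 0.487 and 0.403 in SIRPα KO, and these ranges overlapped. The mean log2 difference of this ratio turned from 0.22 to -0.64 after the correction.

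Cdk4 is a textbook target of MYC, which binds the E-box CACGTG. The Cdk4 window of RefSeq (GRCm38.p6, chr10:127063285-127063584, plus strand), from 250 bases before to 50 bases after the start, is shown because it holds 4 such E-boxes, in capitals.
Cdk4: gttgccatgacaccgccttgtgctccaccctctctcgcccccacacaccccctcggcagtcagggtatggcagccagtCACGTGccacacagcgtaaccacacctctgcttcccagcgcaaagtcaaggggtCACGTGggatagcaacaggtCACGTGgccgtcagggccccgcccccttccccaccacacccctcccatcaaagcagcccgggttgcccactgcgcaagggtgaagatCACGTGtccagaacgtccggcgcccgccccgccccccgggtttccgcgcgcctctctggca
At least 1 E-box was present in 7.15% of the 32851 windows of this length, and its letters read the same on both strands. Of the members, 8 had a window in the RefSeq table, 11 windows in all, and single E-boxes were also found in 1 window of Cdk6 and 1 of Cdkn2c. Myc itself was at 185 ± 11.5 CPM in WT against 239.6 ± 4.89 CPM in SIRPα KO (SD, n = 3). Its log2 fold change of 0.37 did not pass the test (SE 0.10, adjusted p = 0.0532). After the length and GC correction it did pass (0.51, adjusted p = 0.0219). A match of letters is a description of the window and does not show binding.

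Among the CIP/KIP inhibitors, Cdkn1a was abundant and fell, while Cdkn1b was nearly absent in both genotypes. Cdkn1a encodes p21, which p53 and several cytokine signals induce, and lies on the plus strand of chromosome 17 from 29090976 to 29100727. The WT replicates had 548, 585 and 689 CPM of Cdkn1a, and the SIRPα KO replicates had 402, 396 and 415 CPM. No SIRPα KO library reached the lowest WT library, and the SIRPα KO libraries lay within 1.05-fold of each other. The means were 607 ± 72.9 CPM in WT against 404 ± 9.51 CPM in SIRPα KO (SD, n = 3). The log2 fold change of Cdkn1a was -0.59 (SE 0.11, adjusted p = 0.0215). After the length and GC correction it was -0.36 (adjusted p = 0.0365), which is smaller by more than 1.5 times. Without WT replicate 3, the highest library, it was -0.48 (adjusted p = 0.00458). Cdkn1a shares 273 exonic bases with AC167363.2 on the opposite strand, which is not among the deposited genes.

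Cdkn1b encodes p27, which holds resting lymphocytes out of the cycle, and lies on the plus strand of chromosome 6 from 134920401 to 134925513. It had 3.34, 2.42 and 4.77 CPM in WT against 2.68, 3.25 and 3.66 CPM in SIRPα KO. These values rest on 34 to 72 reads a library, and the groups overlapped throughout. Cdkn1b had a log2 fold change of -0.13 (SE 0.39, adjusted p = 0.837), and 2 SE on either side ran from -0.91 to 0.64. A change of any size within this range is thus not excluded by these libraries. There were 144 to 242 reads of Cdkn1a for each read of Cdkn1b in WT libraries and 113 to 149.8 in SIRPα KO libraries, and these ranges overlapped. The mean log2 difference of this ratio turned from -0.49 to 0.26 after the correction. Cdkn1c, the gene of the CIP/KIP inhibitor p57, was at 0.356 to 3.77 CPM and had a log2 fold change of -1.17 (SE 0.84, adjusted p = 0.364).

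Cdkn1a is among the best known p53 targets. The window at the upstream of its 2 RefSeq starts (GRCm38.p6, chr17:29090729-29091028, plus strand) is shown because it held the only match of the members to the p53 consensus, in capitals.
Cdkn1a, upstream start: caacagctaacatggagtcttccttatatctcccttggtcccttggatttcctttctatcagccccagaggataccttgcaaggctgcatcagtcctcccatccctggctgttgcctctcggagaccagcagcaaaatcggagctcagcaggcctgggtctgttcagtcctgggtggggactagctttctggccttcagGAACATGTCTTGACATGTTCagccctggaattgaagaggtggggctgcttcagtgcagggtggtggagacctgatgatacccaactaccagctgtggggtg
The consensus was searched as 2 adjacent half-sites of 20 positions in all, with at most 1 position off, a tolerance and a motif set settled after the windows of the members had been seen. By that rule 0.0883% of all windows of this length held a match. The match lay 51 to 32 bases before the upstream start of Cdkn1a, and the window at its downstream start held none. The upstream window has 2 CpG dinucleotides and the downstream window 23. Which start the reads came from cannot be read from counts per gene.

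The INK4 inhibitors bind CDK4 and CDK6 and keep D cyclins off them. Of the INK4 genes among the members, Cdkn2d fell, whereas Cdkn2c was lower in SIRPα KO without passing the test. The groups did not overlap for either gene, and 21.2% of all genes tested were lower in SIRPα KO without overlap. Cdkn2d, on the minus strand of chromosome 9 from 21288410 to 21291407, encodes p19-INK4D. The WT replicates had 124, 116 and 141 CPM of Cdkn2d and the SIRPα KO replicates 73.9, 61.2 and 67.2 CPM. The gap between the lowest WT and the highest SIRPα KO library was wider than the range of either group. The means were 127 ± 12.9 and 67.5 ± 6.36 CPM (SD, n = 3), and the log2 fold change was -0.91 (SE 0.14, adjusted p = 0.0136). After the length and GC correction it was -0.47 (adjusted p = 0.0386), smaller by more than 1.5 times. Cdkn2d has the shortest transcript of the members, of 1423 bases. Without WT replicate 3 it was -0.82 (adjusted p = 0.00516).

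Cdkn2c encodes p18-INK4C and lies on the minus strand of chromosome 4 from 109660876 to 109667189. It had 30.5, 34.1 and 36.5 CPM in WT against 23.9, 28.0 and 22.3 CPM in SIRPα KO. The groups did not overlap, but the gap between them was small beside their ranges. Its log2 fold change of -0.44 (SE 0.17, adjusted p = 0.119) did not pass the threshold, 2 SE on either side reached from -0.78 to -0.11, and it was -0.22 (adjusted p = 0.431) after the correction. Of the other INK4 genes, Cdkn2a had at most 0.50 CPM in any library and was not tested, and Cdkn2b was at 0.944 to 2.65 CPM with a log2 fold change of -0.38 (SE 0.58, adjusted p = 0.683).

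Set against the kinase it binds, Cdkn2d gave 0.321, 0.283 and 0.301 reads per read of Cdk4 in WT and 0.180, 0.154 and 0.174 in SIRPα KO. The 2 groups stood clear of each other, by a mean log2 difference of -0.84, or -0.60 after the correction. For the ratio of Cdkn2d to Cdkn2c the values were 4.05, 3.40 and 3.86 in WT and 3.09, 2.19 and 3.01 in SIRPα KO. This ratio was also lower in every SIRPα KO library, by -0.46 on the log2 scale and by -0.25 after the correction. Cdkn1a and Ccnd3 kept nearly equal read numbers, at a ratio of 0.961, 1.06 and 1.16 in WT and of 1.09, 1.08 and 1.09 in SIRPα KO. The mean log2 difference of this ratio was 0.0405, or 0.29 after the correction.

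**Figure D2:**
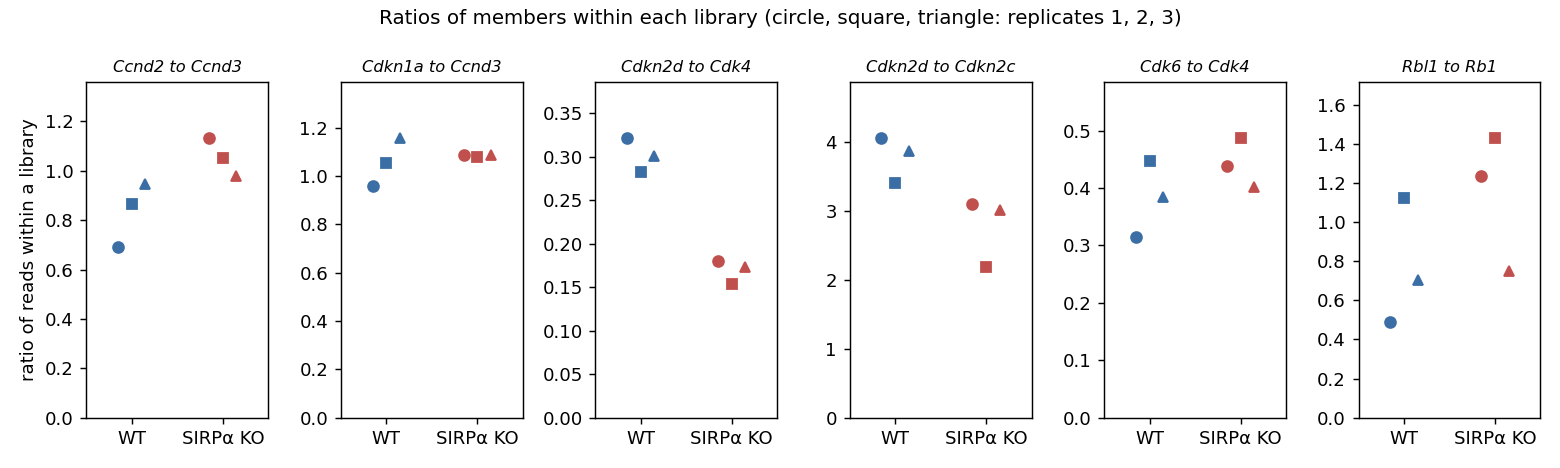
Ratios of the reads of pairs of members within each library (vertical axes, from 0, no unit) for WT (blue) and SIRPα KO (red), with symbols for the replicate number. Ccnd2 to Ccnd3 is higher in all 3 SIRPα KO libraries before the length and GC correction, Cdkn2d to Cdk4 and Cdkn2d to Cdkn2c are lower, and the other 3 ratios overlap.

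The promoter windows of Cdkn2d and Ccnd3 are shown because these genes fell together with Cdkn1a. The first lies on the minus strand (GRCm38.p6, chr9:21291160-21291459) and the second, at the downstream of 2 RefSeq starts, on the plus strand (chr17:47593217-47593516).
Cdkn2d: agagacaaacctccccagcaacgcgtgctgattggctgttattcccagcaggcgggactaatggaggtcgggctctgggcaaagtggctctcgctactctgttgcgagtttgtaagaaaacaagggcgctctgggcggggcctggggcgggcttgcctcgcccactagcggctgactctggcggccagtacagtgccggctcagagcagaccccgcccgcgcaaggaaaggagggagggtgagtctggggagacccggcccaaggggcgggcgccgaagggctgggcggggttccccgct
Ccnd3, downstream start: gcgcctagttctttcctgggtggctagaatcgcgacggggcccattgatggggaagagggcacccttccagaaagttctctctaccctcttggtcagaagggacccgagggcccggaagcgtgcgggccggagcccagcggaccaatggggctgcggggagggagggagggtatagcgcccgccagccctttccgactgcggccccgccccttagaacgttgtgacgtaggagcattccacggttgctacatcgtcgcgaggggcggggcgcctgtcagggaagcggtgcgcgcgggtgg
Neither window held the E2F letters given below, the p53 consensus or the E-box, and so neither has capitals, which says only that these letters are not in these windows. Their GC contents were 66.3% and 67.0%.

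The retinoblastoma family genes did not pass the test and varied most among the WT libraries. Rb1 encodes the retinoblastoma protein and lies on the minus strand of chromosome 14 from 73183673 to 73325822. It was measured at 127.7, 79.1 and 57.8 CPM in WT and at 82.6, 76.7 and 107.2 CPM in SIRPα KO. WT replicates 1 and 3 differed by 2.21-fold and spanned all SIRPα KO libraries. Rb1 had a log2 fold change of 0.0089 (SE 0.28, adjusted p = 0.987), with 2 SE on either side from -0.55 to 0.57, and changes within this range are not excluded. The log2 fold change of Rb1 was -0.40 (adjusted p = 0.294) after the correction and -0.21 without WT replicate 3. Rb1 shares 408 exonic bases with Lpar6, a receptor gene inside it on the opposite strand, and 488 with Rcbtb2. Lpar6 fell (log2 fold change -0.72, SE 0.14, adjusted p = 0.0216) with 529 to 1049 reads a library, against 873 to 2220 for Rb1.

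Rbl1 encodes p107, a pocket protein whose gene is itself an E2F target, and lies on the minus strand of chromosome 2 from 157145893 to 157204534, 27.5 Mb from Sirpa. Its levels were 62.3, 89.0 and 40.7 CPM in WT against 101.9, 109.5 and 80.4 CPM in SIRPα KO. WT replicate 2 was above SIRPα KO replicate 3, and the other WT libraries were below all SIRPα KO libraries. The log2 fold change of 0.60 (SE 0.27, unadjusted p = 0.0572, adjusted p = 0.168) did not pass the threshold, and 2 SE on either side ran from 0.061 to 1.15. It was 0.92 (adjusted p = 0.0410) without WT replicate 2 and 0.20 (adjusted p = 0.562) after the correction. Rbl2, the gene of the third pocket protein p130, had a log2 fold change of 0.71 (SE 0.31, adjusted p = 0.159). Rbl2 was at 173, 181 and 71.2 CPM in WT against 237, 223 and 235 CPM in SIRPα KO, so that every SIRPα KO library was higher and WT replicate 3 was far below the other WT libraries. The reads of Rbl1 per read of Rb1 were 0.488, 1.12 and 0.703 in WT and 1.23, 1.43 and 0.751 in SIRPα KO, and these overlapped.

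The Rbl1 window of RefSeq (GRCm38.p6, chr2:157204485-157204784, minus strand) is shown because it was the only one of the members to hold the letters of an E2F site, in capitals.
Rbl1: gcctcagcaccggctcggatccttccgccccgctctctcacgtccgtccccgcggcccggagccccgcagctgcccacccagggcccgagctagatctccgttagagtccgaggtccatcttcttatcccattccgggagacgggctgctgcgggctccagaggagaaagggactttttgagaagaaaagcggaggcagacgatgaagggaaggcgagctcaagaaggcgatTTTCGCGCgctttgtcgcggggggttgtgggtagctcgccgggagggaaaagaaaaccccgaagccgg
The letters searched on both strands were TTTCCCGC, TTTCGCGC, TTTGCCGC and TTTGGCGC, which occurred in 2.26% of all windows of this length. The match lay 18 to 11 bases before the start of Rbl1.

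**Figure D3:**
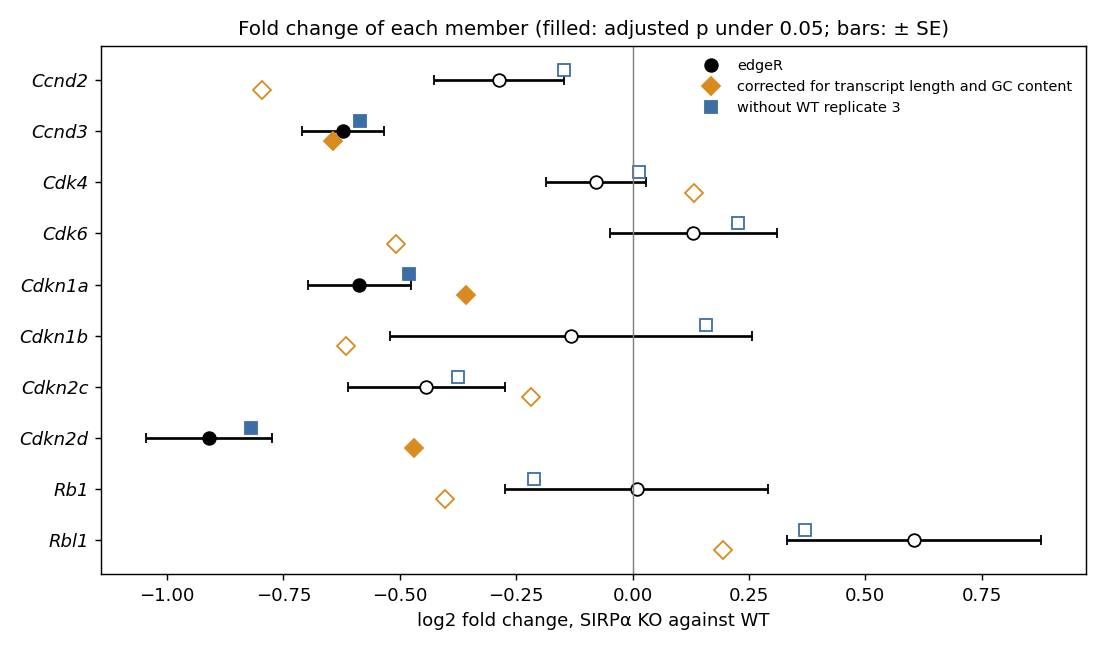
The log2 fold change of each member in SIRPα KO against WT (horizontal axis) by edgeR (circles, bars for ± SE), after the length and GC correction (diamonds) and without WT replicate 3 (squares), filled where the adjusted p was under 0.05. Only Ccnd3, Cdkn1a and Cdkn2d are filled, and they are filled in all 3 fits, while Cdk4, Cdk6 and Rb1 have their circle and diamond on opposite sides of 0.

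Compared per length of the longest transcript, the order of levels in WT began with Cdkn1a at 292 ± 35.1 CPM per kilobase, followed by Cdk4 at 205 ± 21.01, Ccnd3 at 149 ± 5.27, Cdkn2d at 89.1 ± 9.04 and Ccnd2 at 75.7 ± 13.3 CPM per kilobase (SD, n = 3). Next came Rb1 at 18.9, Cdk6 at 13.997, Cdkn2c at 13.6 and Rbl1 at 13.2 CPM per kilobase, and Cdkn1b was last at 0.770 CPM per kilobase. Thus p21, cyclin D3 and CDK4 transcripts led in WT, while those of Rb1, Cdk6, Cdkn2c and Rbl1 were low and near each other. Neighbours whose WT libraries overlapped were Cdkn2d and Ccnd2, Rb1 and Cdk6, Cdk6 and Cdkn2c, and Cdkn2c and Rbl1. In SIRPα KO, Cdkn1a and Cdk4 were level at 194 CPM per kilobase each, and Ccnd3 followed at 96.6, Ccnd2 at 62.0 and Cdkn2d at 47.4 CPM per kilobase. By this length Ccnd2 was above Cdkn2d in SIRPα KO, without overlap of the libraries, and the pair overlapped in WT. Rbl1 (20.01 CPM per kilobase), Rb1 (19.1) and Cdk6 (15.3) overlapped as neighbours, ahead of Cdkn2c at 10.0 and Cdkn1b at 0.703 CPM per kilobase. Dividing by all merged exons of a gene in place of the longest transcript moved 12 of these 20 levels by more than 1 SD and put Cdkn2d above both Ccnd3 and Ccnd2 in both groups, so the order of these 3 genes depends on the length used.

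**Figure D4:**
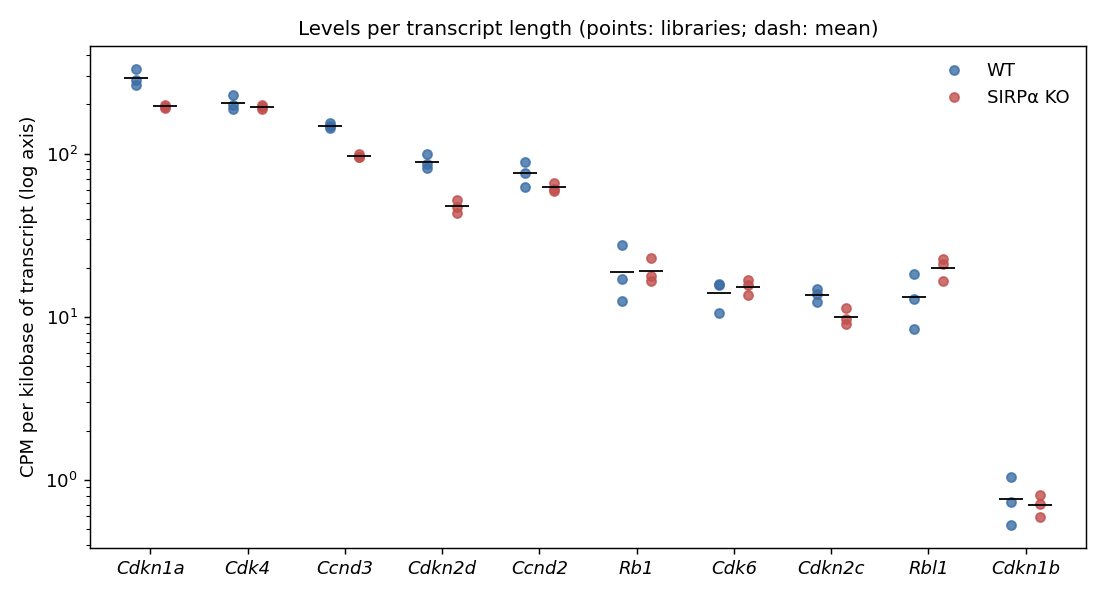
Levels of the 10 members in CPM per kilobase of the longest transcript (vertical log axis) for WT (blue) and SIRPα KO (red), with a point for each library and a dash for the mean, ordered by the WT mean. Cdkn1a leads in WT at 292 CPM per kilobase and meets Cdk4 at 194 in SIRPα KO, and Cdkn1b is lowest in both.

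The rest of the G1 machinery, the cyclins, kinases, E2Fs and adaptors that act beside or just after the members, was given by 36 listed genes, of which 34 were tested. Of these, 1 rose and 1 fell, and the median log2 fold change of the list was 0.14. After the length and GC correction 1 gene of the list was called higher, Myc, and 1 lower, with a median of 0.0515. E2f7, an E2F that represses E2F targets, rose (log2 fold change 0.65, SE 0.17, adjusted p = 0.0454), from 26.8 ± 3.56 to 42.1 ± 4.05 CPM (SD, n = 3), and was at 0.32 (adjusted p = 0.241) after the correction. Cks1b, a CDK adaptor that helps to mark p27 for destruction, fell (log2 fold change -0.58, SE 0.13, adjusted p = 0.0331), from 188 ± 27.3 to 126 ± 5.69 CPM, and was at -0.14 (adjusted p = 0.384) after it. Ccne2, which encodes cyclin E2, the partner of CDK2, was higher in every SIRPα KO library, at 65.5, 52.2 and 20.99 CPM in WT against 98.3, 85.1 and 81.6 CPM in SIRPα KO, without passing the test (0.93, SE 0.36, adjusted p = 0.122). Ccne1 (0.11, adjusted p = 0.557) and Cdk2 (0.13, adjusted p = 0.644) had overlapping groups.

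Downstream of the members, 30 S-phase genes that E2F controls were tested, of which 1 rose and 2 fell. Their median was -0.0027, or -0.12 after the correction. Pola1, a subunit of the DNA polymerase alpha-primase complex, rose from 38.4 ± 5.04 to 74.5 ± 3.95 CPM (log2 fold change 0.96, SE 0.15, adjusted p = 0.0144) and stood just outside the threshold after the correction (0.47, adjusted p = 0.0508). Pcna, the sliding clamp, fell by 0.57 on the log2 scale (SE 0.12, adjusted p = 0.0271) and Pold1, the catalytic subunit of polymerase delta, fell by 0.70 (SE 0.14, adjusted p = 0.0243), both kept after the correction. Of 25 mitosis genes, 1 rose and 4 fell, with a median of -0.13, or -0.10 after the correction. The kinase gene Bub1 rose (0.53, adjusted p = 0.0405), and the cyclin gene Ccnb2 (-0.65, adjusted p = 0.0212), the centromere histone gene Cenpa (-0.75, adjusted p = 0.0152) and the passenger complex genes Birc5 (-0.75, adjusted p = 0.0220) and Cdca8 (-0.45, adjusted p = 0.0386) fell. After the correction no mitosis gene was called higher and 7 were called lower. Among the 7 were Cenpa, Birc5 and Cdca8, but not Ccnb2 (-0.42, adjusted p = 0.0786). Mki67, a marker of cycling cells, was at 179, 278 and 188 CPM in WT against 259, 285 and 232 CPM in SIRPα KO. The groups overlapped for Mki67, and its log2 fold change was 0.27 (SE 0.18, adjusted p = 0.348), or -0.29 (adjusted p = 0.251) after the correction.

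Of 18 other targets of p53, which also controls Cdkn1a, 1 rose and 1 fell. Their median log2 fold change was 0.099, or 0.14 after the correction. Ccng1, a cyclin G gene, rose (0.72, SE 0.16, adjusted p = 0.0312), and Bax, a death effector gene, fell (-0.56, SE 0.15, adjusted p = 0.0484). Neither passed after the correction, where Ccng1 was at 0.40 (adjusted p = 0.0577) and Bax at 0.19 (adjusted p = 0.323). Of 15 genes tied to FOXO factors and to quiescence, 2 fell and none rose, and the median was -0.36, or -0.63 after the correction. Klf2, a transcription factor of resting lymphocytes, fell from 7.25 ± 2.59 to 1.48 ± 0.573 CPM (-2.29, SE 0.46, adjusted p = 0.0252), and Btg1, an antiproliferative gene, from 264 ± 5.70 to 185 ± 4.24 CPM (-0.51, SE 0.095, adjusted p = 0.0207). Both fell after the correction too. Beside the 3 of 10 members called, the shares called in these lists, 2 of 34, 3 of 30, 5 of 25, 2 of 18 and 2 of 15, stood against 11.7% of all genes. Cd47, which encodes the ligand of SIRPα, also fell (-0.68, SE 0.12, adjusted p = 0.0184).

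**Figure D5:**
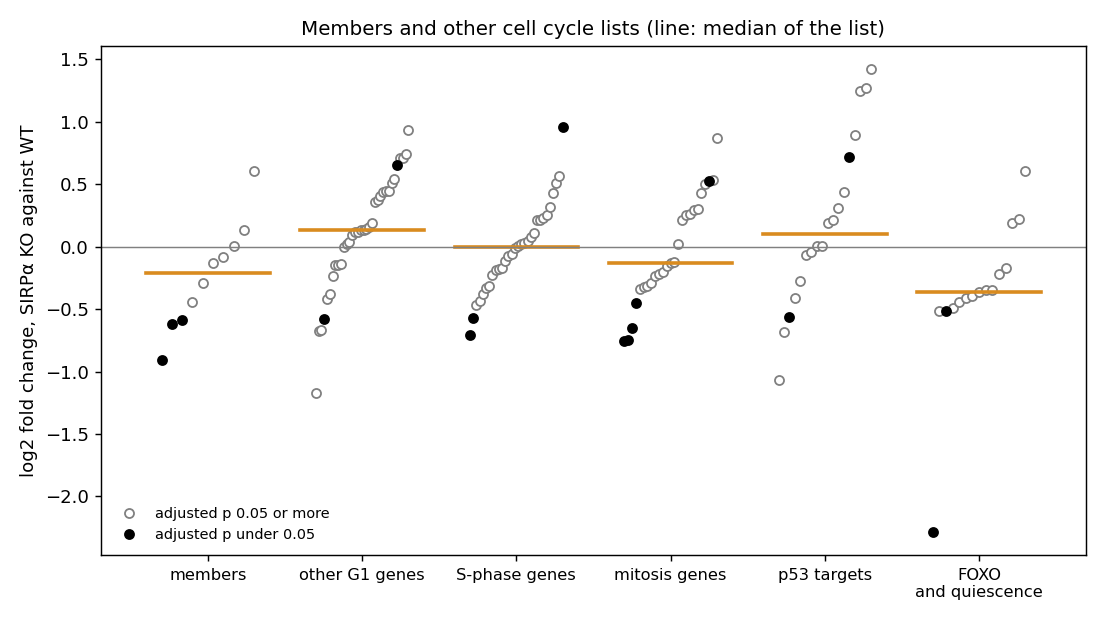
The log2 fold change in SIRPα KO against WT (vertical axis) of each tested gene of the members and of the 5 other lists, with filled points for an adjusted p under 0.05 and a line at the median of each list. The 3 filled members lie at the lower end of their list. Before the length and GC correction, as drawn, the medians run from -0.36 for the FOXO and quiescence genes to 0.14 for the other G1 genes.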

How the data were processed

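The 6 bulk RNAseq libraries, 3 of WT and 3 of SIRPα KO ILC2s, were each made from 10 pg of RNA with a low-input cDNA kit. The authors deposited estimated counts per gene, 17831 genes, with no gene under a total of 10 over the 6 libraries. The submitters' processing notes name Partek 10.0, STAR 2.7.8, mm10 and DESeq2, and the study's methods name the GENCODE annotation. The handling of strand, and of reads that fit more than 1 gene, is not given in the sources used here. Of the gene columns, 184 were named singly in the record of columns and 17647 were not, all of 1 unit. Samples were grouped by their titles and genotype labels.

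Estimated counts were rounded, filtered with edgeR's filterByExpr (10 reads in a library of median size, 15 in total), scaled by TMM and tested for genotype alone with edgeR's quasi-likelihood test, with Benjamini-Hochberg adjustment over 13623 genes and a threshold of 0.05. The standard error came from the F statistic. CPM values are TMM-scaled, and depth was 13980491 to 19051504 reads a library. Tools were R 4.3.3, edgeR 4.0.16, limma 3.58.1, DESeq2 1.42.0, BLAST+ 2.17.0, pandas 2.3.3 and matplotlib 3.10.9. The fits were tested on simulated data. The length and GC correction fitted splines with 5 degrees of freedom in each library over 8983 genes, with length and GC content known for 98.98% of tested genes. In GENCODE M21, 17400 symbols were found as written, 188 through a synonym and 243 not at all. Promoter windows came from RefSeq.

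Alternatives were DESeq2, other scaling factors, other filters, a replicate block, libraries of 1 code summed, the length and GC correction, and each library left out. All 10 members were named, with Sirpa, Cd47, Mki67, 8 close relatives (Ccnd1, Cdkn2a, Cdkn2b, Cdkn1c, Rbl2, Cdk2, Ccne1 and Ccne2) and every gene past the threshold in the 5 cell cycle lists, since none had more than 6. Myc, the overlapping genes and the marker genes named singly were chosen after their values were seen. The members and lists were chosen with earlier results of these data known. One of the listed marker genes is not reported here. Flow cytometry and respiration measurements were not analysed here.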

Additional observations from a re-analysis of the deposited data

How the results depend on the processing

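Ccnd3, Cdkn1a and Cdkn2d kept their direction and their call under DESeq2, both other scalings, both other filters, the replicate block and the length and GC correction, and without any 1 WT library. With the libraries of 1 code summed, 10 genes and 0 members were called, and Ccnd3 (-0.63, adjusted p = 0.131), Cdkn1a (-0.63, adjusted p = 0.139) and Cdkn2d (-0.91, adjusted p = 0.130) missed the threshold in edgeR's test on 2 against 2 samples. The 5 lists then had 0 calls each. The number of genes called was 1600, 3118 by DESeq2 and 1118 under the replicate block, which kept 3 members and left 1 FOXO and quiescence gene. Deviations of same-numbered libraries from their group means correlated at -0.139, 0.183 and 0.0307, and not every library correlated best with its own number. Pairing by number was thus not shown. These values cannot exclude it, since deviations from the mean of so few libraries depend on each other. DESeq2 called 8 of the other G1 genes, 7 S-phase genes, 9 mitosis genes, 5 p53 targets and 4 FOXO and quiescence genes. DESeq2's size factors in edgeR left 1 p53 target. Upper quartile factors, which moved the median log2 fold change of all genes from -0.025 to -0.13, left 1 other G1 gene, 6 S-phase genes and Rb1 at -0.076. No filter on low counts left 1 other G1 gene, 3 mitosis genes and 1 p53 target. The correction left 0 p53 targets and 4 FOXO and quiescence genes, and turned Cdk4 to 0.13, Cdk6 to -0.51 and Rb1 to -0.40. The share of calls that were higher in SIRPα KO was 50.6%, and 41.0% with upper quartile factors, 59.8% under the block and 90.0% with codes summed. The cause of these shifts was not tested.

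Leaving out 1 library at a time gave 16 to 2606 genes called, the highest without WT replicate 3, and 0 to 4 members, with Rbl1 called without WT replicate 2. Calls ranged over 0 to 8 other G1 genes, 0 to 7 S-phase genes, 0 to 9 mitosis genes, 0 to 6 p53 targets and 0 to 3 FOXO and quiescence genes. Log2 fold changes ranged from -0.40 to -0.15 for Ccnd2, -0.65 to -0.59 for Ccnd3, -0.13 to 0.013 for Cdk4, -0.036 to 0.23 for Cdk6, -0.65 to -0.48 for Cdkn1a, -0.34 to 0.16 for Cdkn1b, -0.54 to -0.37 for Cdkn2c, -0.97 to -0.82 for Cdkn2d, -0.21 to 0.38 for Rb1 and 0.37 to 0.92 for Rbl1. Without a SIRPα KO library the adjusted p was 0.0811 to 0.101 for Ccnd3, 0.102 to 0.126 for Cdkn1a and 0.0817 to 0.0991 for Cdkn2d. Cdkn1b had the fewest reads of the members, 34 to 72 a library, and the widest error (SE 0.39), and what part counting error has in it was not tested. Ccnd1 and Cdkn2a did not pass the filter on low counts.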
